A study of Mus musculus with 48 samples.

Results

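The P10 sham hearts of this series were compared between day 7 and day 3 after surgery, in 6 libraries of each day. These 12 libraries were chosen by their titles and are part of the 42 libraries with a read list, of 48 labelled samples. C57BL/6 pups had their chest opened under cold anesthesia on postnatal day 10 (P10), without the ligation of the coronary artery that the infarcted (MI) hearts received, and the hearts were taken 3 or 7 days later, at about 13 and 17 days of age. H3K27ac was measured with CoBATCH, a form of ChIP-Seq for single cells whose antibody carries a transposase to the marked DNA, in live CD45+ F4/80+ cells, that is, leukocytes with the surface protein of macrophages. The treatment label reads myocardial infarction for the sham libraries too, so that the sham operation is known from the titles and the source names. Each heart was cut by hand into 3 zones, named infarct (IZ), border (BZ) and remote (RZ), which in sham hearts are positions without an infarct. The same zone of several hearts was pooled. The sex of the pups was not determined, and the tissue of all groups was handled in buffers with sodium butyrate, which inhibits histone deacetylases. Each day had 2 pools of hearts, numbered 2 and 3 at day 3 and 1 and 2 at day 7, and each pool gave 1 library per zone. No P10 heart without an operation was among the libraries with a read list, so age and time since surgery cannot be told apart. The read lists name no cell, and less mark per cell and fewer cells of a type cannot be told apart in them.

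H3K27ac, acetylation of lysine 27 of histone H3, marks active promoters and enhancers, and its amount around a gene serves as a proxy of that gene's activity. The heart holds resident macrophages that settle before birth and maintain themselves by division, and it receives monocytes from the blood that can become macrophages after they enter. Resident cells of the mouse heart clear dying cells and debris and are known by genes such as Lyve1, Timd4 and Mrc1, whereas monocytes that have just arrived carry genes such as Ly6c2. The weeks after birth are a time of rapid growth of the mouse heart, and surface MHC class II proteins, which present antigen to T cells, become more common on its macrophages over this time.

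The day 3 libraries held 367429, 553780 and 849685 read pairs (lowest, median and highest of 6), and the day 7 libraries held 280975, 323678 and 520247, so that most of the day 7 libraries were shallower. Gene activity was the number of pairs in H3K27ac regions from 50 kb upstream of a gene to 30 kb downstream of it, here called its window, scaled to the total of the tested windows of a library (CPM, counts per 1e6). The share of pairs in regions was 47.2% ± 4.87 (SD, n = 6) at day 3 and 51.4% ± 7.41 (SD, n = 6) at day 7. Over pool means the difference was 4.21 percentage points with p = 0.667 by a two-sided exact permutation test, in which 2 against 2 pools cannot give less than 0.333. The cell type label was checked against markers. All 9 general macrophage and monocyte genes, such as Adgre1, Csf1r and Spi1, had the mean of 10 pairs per library that a test required, as did 4 of 6 B cell, 4 of 7 neutrophil and 4 of 6 dendritic cell genes, 1 of 4 NK cell genes, 1 of 7 eosinophil and mast cell genes, 1 of 10 genes of non-leukocytes and 0 of 6 T cell genes. Counting all pairs in a window, also those outside regions, brought 3 of 4 NK cell, 6 of 7 eosinophil and mast cell, 8 of 10 non-leukocyte and 6 of 6 T cell genes to that minimum. The share of pairs on the Y chromosome was 0.00878% in the day 7 pool numbered 1 and 0.0256% to 0.0281% in the 3 other pools, and the part of sex in the results was not tested.

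No gene window passed the test between the days. Of 10159 windows tested, 0 (0%) had an adjusted p under 0.05 (limma voom, Benjamini-Hochberg), and the smallest adjusted p was 0.0618. An unadjusted p under 0.05 was seen in 860 windows (8.47%), which lay in 351 separate stretches of the genome because windows of neighbouring genes overlap. Of these, 522 (5.14%) were higher and 338 (3.33%) were lower at day 7. By limma-trend, which gives the libraries equal weight within a window, 269 windows had an unadjusted p under 0.05 and 0 passed the adjusted threshold. The log2 differences were small. They ran from -1.31 to 0.90, the middle 90% from -0.49 to 0.34, and 48.9% of windows were higher at day 7 (73.9% when scaled to all deposited pairs, which raised the median of all windows from -0.01 to 0.16). The 95% interval lay within a 2-fold change in either direction for 89.7% of windows, at a median standard error of 0.22 and a median of 39 pairs per library and window. Differences beyond 2-fold were thus outside the interval for most windows. The count was 0 in 26 of 32 other fits and 7 to 46 in the rest. It was 46 windows (39 higher) with the replicate number as a block within each group of pools, 13 without the pools as a block, 9 with a lower minimum of pairs, 9 with repeated lines kept, 7 without the day 7 IZ library numbered 1 and 13 without the day 7 BZ library numbered 2. The replicate block takes its spread from zone libraries of the same pools, which are not independent.

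The 10 windows at the smallest adjusted p came from 2 stretches of the genome. The first stretch is on chromosome 7, where 9 genes from Cend1 to Tspan4 share 1 broad H3K27ac region and were higher at day 7 by 0.39 to 0.44 on the log2 scale. Cd151 (ENSMUSG00000025510.14, chr7:141467392-141471473, plus strand, GRCm38), which encodes a tetraspanin of the cell surface, had the smallest p of them, tied with Tspan4, whose window has the same value. Its window held 266, 316 and 386 CPM at day 3 (lowest, median, highest) and 377, 430 and 463 CPM at day 7, so that 1 day 7 library fell below the highest day 3 library. The difference was 0.44 log2 ± 0.10 (SE, 95% interval 0.25 to 0.63), with an adjusted p of 0.0618 by limma.

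The second stretch is on chromosome 9, where the window of Tbc1d2b (ENSMUSG00000037410.13, chr9:90202027-90270804, minus strand), which encodes a regulator of Rab GTPases, was lower at day 7. It held 190, 208 and 263 CPM at day 3 and 114, 140 and 155 CPM at day 7, and the days did not overlap. The difference was -0.69 log2 ± 0.16 (SE, 95% interval -1.0 to -0.38), with the same adjusted p of 0.0618 by limma. Windows whose 6 libraries of one day all lay above the 6 of the other numbered 82 of 10159 (0.807%), of which 42 (0.413%) were higher and 40 (0.394%) lower at day 7.

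The other 4 windows named for being higher at day 7 included 2 whose genes are known to respond to glucocorticoid hormone. Zbtb16 (chr9:48654297-48836222), which encodes a zinc finger transcription factor, held 37.5, 71.8 and 90.5 CPM at day 3 and 75.3, 127 and 157 CPM at day 7, a difference of 0.83 log2 ± 0.21 (SE) with an adjusted p of 0.139 by limma. All 5 of its regions with enough pairs were higher at day 7. The days overlapped in it, since the lowest day 7 library lay below 2 of the day 3 libraries. Per1 (chr11:69095217-69109960), a repressor of the circadian clock, held 399, 456 and 538 CPM against 469, 552 and 630 CPM, with 0.33 log2 ± 0.08 (SE) and an adjusted p of 0.175 by limma. Its window overlaps those of 10 other genes. Its 4 tested regions span or lie near the start sites of Aurkb, Vamp2, Per1 itself, 9130213A22Rik and Aloxe3. All 4 were higher, though the libraries of the days overlapped.

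The window of Clpsl2 (chr17:28549411-28552620) holds 1 region, which spans the start site of the neighbouring gene Fkbp5. Clpsl2 therefore stands for that region, and its 34.4, 59.8 and 64.7 CPM at day 3 against 60.6, 97.1 and 132 CPM at day 7 gave 0.90 log2 ± 0.23 (SE) with an adjusted p of 0.139 by limma. Atp5d (chr10:80138632-80145818), a subunit of the mitochondrial ATP synthase, held 455, 522 and 538 CPM at day 3 and 570, 612 and 680 CPM at day 7. Its days did not overlap, and the difference was 0.33 log2 ± 0.09 (SE) with an adjusted p of 0.189 by limma. The Atp5d window overlaps those of 8 other genes. Its 2 tested regions were both higher, and they span the start sites of Sbno2, Cbarp and Atp5d itself.

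The other 4 windows named for being lower at day 7 had differences of -1.21 to -0.75 on the log2 scale, none of which passed. A130010J15Rik (chr1:193168046-193177832) has a window that overlaps those of other genes, among them Hsd11b1, which encodes the enzyme that regenerates active glucocorticoid in cells. The window of A130010J15Rik held 49.1, 84.1 and 98.4 CPM at day 3 and 24.4, 40.5 and 63.0 CPM at day 7, a difference of -1.0 log2 ± 0.25 (SE) with an adjusted p of 0.12 by limma. Its 4 tested regions were all lower, and their nearest start sites are those of Diexf, A130010J15Rik and Traf3ip3. Ccrl2 (chr9:111054486-111057519), an atypical receptor that binds the chemoattractant chemerin, has a window that overlaps that of Ltf. The Ccrl2 window held 91.9, 99.8 and 125 CPM at day 3 and 51.1, 62.9 and 107 CPM at day 7, with -0.75 log2 ± 0.20 (SE) and an adjusted p of 0.189 by limma. Its 5 tested regions were all lower, from -0.31 log2 ± 0.32 (SE) at the Ccrl2 start site to -1.38 log2 ± 0.51 (SE) nearest to Lrrfip2. The region nearest to Ltf was at -1.30 log2 ± 0.41 (SE). The value of 107 CPM belongs to the RZ library numbered 2, and the 5 other day 7 libraries lay at 67.8 CPM or less, below every day 3 library.

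In both windows that follow, the days did not overlap. Wdr25 (chr12:108893631-109028452), which encodes a WD repeat protein, held 30.9, 37.8 and 48.9 CPM at day 3 and 9.69, 17.3 and 24.9 CPM at day 7. It differed by -1.21 log2 ± 0.33 (SE), adjusted p = 0.189 by limma, on 159 pairs at day 3 and 49 at day 7. Its window overlaps those of Yy1, Slc25a47 and Wars. The 2 tested regions in it were at -0.92 log2, at the start sites of Wars and Wdr25, and at -0.94 log2, within Wdr25. Hmbox1 (chr14:64811600-64949871), a homeobox gene whose product binds telomeric repeats, held 70.7, 83.5 and 111 CPM at day 3 and 33.4, 47.9 and 67.7 CPM at day 7, with -0.85 log2 ± 0.24 (SE) and an adjusted p of 0.189 by limma.

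**Figure D1:**
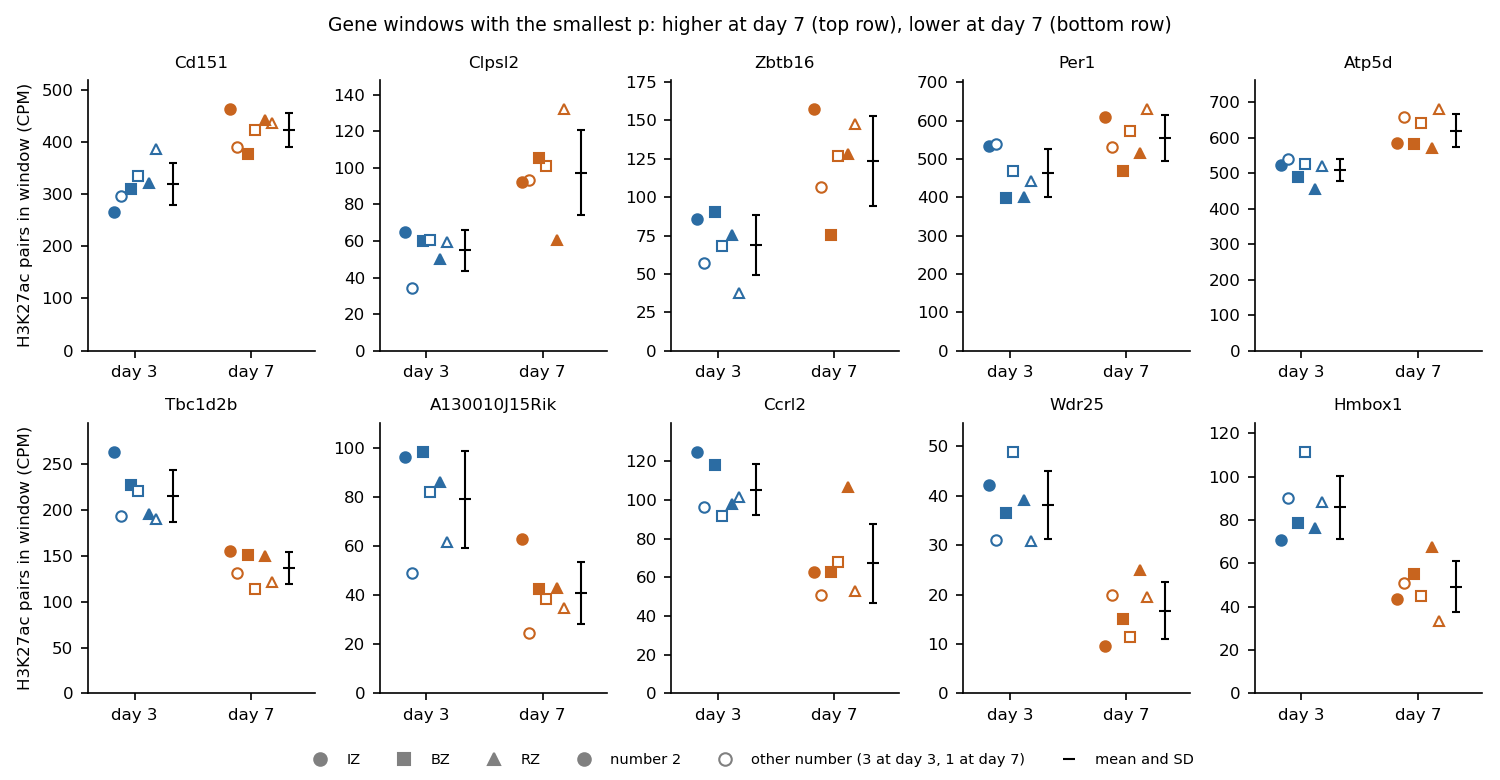
H3K27ac level (CPM, vertical axes from 0) in the 10 named windows, 1 point per library, by day after surgery (horizontal axes). Circles are IZ, squares BZ and triangles RZ, filled for libraries numbered 2, and bars give the mean and SD of 6 libraries. The days do not overlap in Atp5d, Tbc1d2b, Wdr25 and Hmbox1, and in Ccrl2 the RZ library numbered 2 of day 7 stands at 107 CPM above the others of its day.

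Single regions were also compared, since windows of neighbours overlap and regions do not. Of 12490 regions tested, 0 (0%) had an adjusted p under 0.05 by limma voom, and the smallest was 0.0564. An unadjusted p under 0.05 was seen in 752 (6.02%), 366 (2.93%) higher and 386 (3.09%) lower at day 7, and by limma-trend in 328, with 0 past the adjusted threshold. Among 6713 promoter regions, within 1000 bp of a start site, 217 were higher and 130 lower at an unadjusted p under 0.05, and among 5777 distal regions 149 were higher and 256 lower. Whether these splits differ was not tested. Of all promoter regions 51.2% were higher at day 7, and of all distal regions 47.3%. The share of all regions that were higher was 62.0% when scaled to all deposited pairs and 43.1% with median-of-ratios scaling. A median of 9 pairs per library and region left 45.7% of the intervals within a 2-fold change, and 68 regions (0.544%) did not overlap between the days. The count of 0 became 14 in a fit of the 12 libraries alone, 10 with the replicate number as a block, 8 without the day 7 pool numbered 2, 3 without its RZ library alone, and 1 in 7 further fits.

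The region with the smallest p was the broad one on chromosome 7 that the Cd151 window holds. It covers 46500 bp at chr7:141432501-141479000 and spans the start site of Slc25a22, a mitochondrial glutamate carrier. It held 746, 856 and 1081 CPM of tested regions at day 3 and 1038, 1230 and 1316 CPM at day 7, and the days overlapped. The difference was 0.50 log2 ± 0.10 (SE) on 1271 and 1255 pairs, with an adjusted p of 0.0564 by limma.

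A pair of regions beside genes that respond to glucocorticoid and stress were among the 5 regions named for being higher. The region chr17:28509501-28528500 covers the start site of Fkbp5, a co-chaperone that lowers the hormone affinity of the glucocorticoid receptor. It held 101, 171 and 188 CPM at day 3 and 167, 289 and 404 CPM at day 7, with 0.93 log2 ± 0.22 (SE) on 229 and 313 pairs and an adjusted p of 0.187 by limma. The days overlapped in it. The region chr10:59969501-59983000 lies between genes, 17.7 kb from the start site of Ddit4, whose product inhibits the growth kinase complex mTORC1. Its 97.8, 127 and 140 CPM at day 3 did not overlap with its 193, 240 and 289 CPM at day 7, and the difference was 0.95 log2 ± 0.24 (SE) on 180 and 245 pairs, adjusted p = 0.202 by limma.

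The remaining regions held few pairs. An intronic region of Ppp1r21, chr17:88580001-88582500, 15.2 kb from the start site of Ston1, was 2.01 log2 ± 0.47 (SE) higher on 20 pairs at day 3 and 48 at day 7. A region within Zmynd8, a chromatin reader, chr2:165867001-165870000, was 2.11 log2 ± 0.53 (SE) higher on 14 and 30 pairs. Their adjusted p-values by limma were 0.166 and 0.202. In the Ppp1r21 region 1 library of day 3 had no pair, and in the Zmynd8 region 3 had none.

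The 4 regions described here for being lower at day 7 held 5 to 31 pairs over the 6 libraries of that day. Within Iqsec1, an activator of Arf GTPases, chr6:90753001-90759000 had 75 pairs at day 3 and 13 at day 7, -1.99 log2 ± 0.50 (SE), with an adjusted p of 0.202 by limma. The others were chr1:191131001-191133500, 31.3 kb from Fam71a, with 33 and 5 pairs, chr9:7772501-7776500 within Tmem123 with 62 and 13 pairs, and chr12:80228001-80233000 within Actn1, which encodes the actin cross-linker alpha-actinin, with 108 and 31 pairs. They differed by -2.10, -1.98 and -1.73 log2, and in the first and the second of them the days did not overlap.

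Sequences are given for 2 regions that were higher and 1 that was lower at day 7, each among the smallest p of its direction, as the 200 bases around the point where most pairs fell. Those of the regions beside Fkbp5 and Ddit4 were added after their values were seen. They were read from GRCm38 on the plus strand. The window of the chromosome 7 region was moved to the pair-richest 200 bases that touch no annotated UTR, which lie within Cd151. Capitals mark matches to the letters searched on both strands for macrophage factors: GAGGAA (PU.1), TGACTCA (AP-1), TTGCGCA (CEBP), TGCTGAC (MAF), TGTGGTT (RUNX) and TCACGTG (MITF/TFE).
chr7:141468621-141468820, in Cd151, higher: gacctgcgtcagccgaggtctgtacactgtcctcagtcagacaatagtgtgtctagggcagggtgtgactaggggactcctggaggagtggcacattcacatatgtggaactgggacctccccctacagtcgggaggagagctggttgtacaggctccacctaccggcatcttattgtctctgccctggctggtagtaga
chr17:88581381-88581580, in an intron of Ppp1r21, higher: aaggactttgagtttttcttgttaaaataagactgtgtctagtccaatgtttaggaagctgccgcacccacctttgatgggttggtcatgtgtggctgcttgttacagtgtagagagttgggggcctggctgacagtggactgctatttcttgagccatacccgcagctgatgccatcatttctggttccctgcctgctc
chr17:28515841-28516040, in an intron of Fkbp5, higher: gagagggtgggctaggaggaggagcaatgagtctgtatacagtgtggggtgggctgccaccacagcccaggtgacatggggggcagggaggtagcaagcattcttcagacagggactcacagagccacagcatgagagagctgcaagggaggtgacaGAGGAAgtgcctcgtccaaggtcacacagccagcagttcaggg
chr10:59980841-59981040, between genes near Ddit4, higher: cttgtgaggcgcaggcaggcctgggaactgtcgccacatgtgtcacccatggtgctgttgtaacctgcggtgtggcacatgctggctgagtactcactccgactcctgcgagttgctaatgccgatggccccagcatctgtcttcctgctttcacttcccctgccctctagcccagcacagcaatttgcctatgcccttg
chr6:90757281-90757480, in Iqsec1, lower: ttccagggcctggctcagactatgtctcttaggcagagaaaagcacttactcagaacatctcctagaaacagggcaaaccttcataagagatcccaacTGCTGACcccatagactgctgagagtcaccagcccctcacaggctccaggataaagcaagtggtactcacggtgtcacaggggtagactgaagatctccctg

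The PU.1 letters were found once in the Fkbp5 window, and the MAF letters once in the Iqsec1 window. Of the 27160 regions, 24.2% held the PU.1 letters in a window of the same length, 5.14% those of AP-1, 1.03% those of CEBP, 3.91% those of MAF, 4.26% those of RUNX and 2.45% those of MITF/TFE. The letters ACANNNTGT of the glucocorticoid receptor, added after values were seen, were found in 5.04% of the regions and in 0 of these 5 windows, which says only that these letters are not in these windows.

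The replicate numbers allowed a comparison within flow cells. The pools numbered 2 of both days were sequenced on the same 5 flow cell lanes, as the read names show, whereas the day 3 pool numbered 3 was on 2 other lanes and the day 7 pool numbered 1 on 6 others. For the latter pair of pools, day and flow cell cannot be told apart. Between 9.67% and 20.1% of the lines of the libraries numbered 2 were repeats of another line and were dropped.

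Each pair of pools was therefore fitted without the other pair, while the MI and P1 libraries stayed in the fit. Such a fit leaves 1 library per zone and day in P10 sham hearts, from 1 pool a day. The spread behind its p-values comes from the other groups. Among windows, 463 (4.56%) had an unadjusted p under 0.05 in the libraries numbered 2 and 572 (5.63%) in the others, with 0 past the adjusted threshold by limma voom in each. Across the 10159 windows the 2 differences had a Pearson's r of 0.05, and 50.3% had the same sign. These windows overlap and share libraries, so this is a description. Each of the 10 named windows had the same sign in both pairs of pools, which the choice by small p over all 4 pools favours. The Cd151 window was 0.51 higher in the libraries numbered 2 and 0.31 in the others, Zbtb16 was 0.47 and 1.24 higher, and Tbc1d2b was at -0.57 and -0.71 on the log2 scale. Per1, at 0.27 and 0.27, and A130010J15Rik, at -0.91 and -0.95, differed least of the 10 windows between the pairs of pools, and the regions beside Fkbp5 (0.54 and 1.16) and within Actn1 (-3.12 and -0.47) more.

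**Figure D2:**
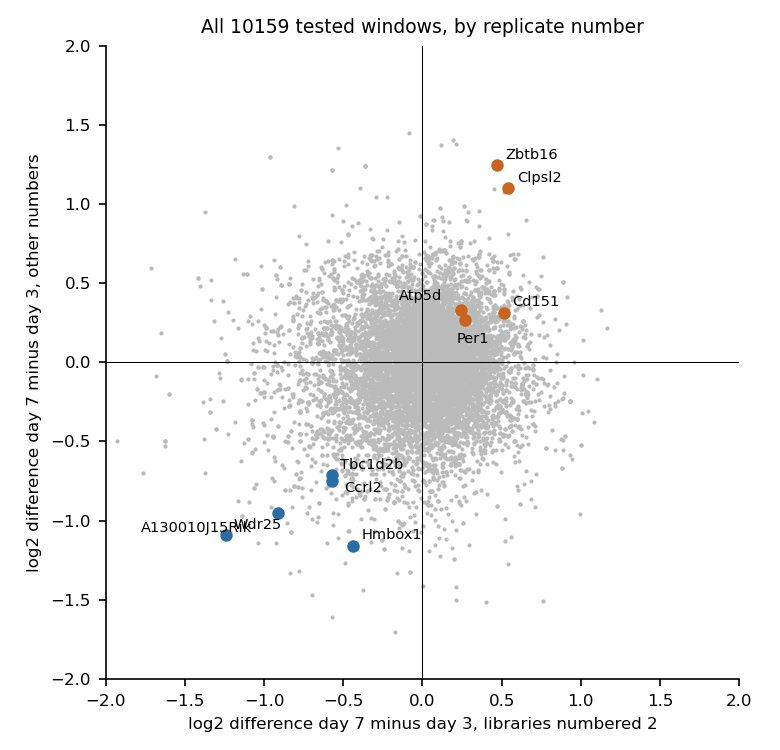
Log2 difference of day 7 minus day 3 for each of 10159 gene windows, in the libraries numbered 2 (horizontal axis) and in those with other numbers (vertical axis). The grey cloud has no slope to speak of (Pearson's r 0.05), and the named windows, chosen on all 12 libraries, lie in the upper right (orange) and lower left (blue).

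Zones were strata of the same pools. Within the IZ 366 windows (3.6%) had an unadjusted p under 0.05, within the BZ 593 (5.84%) and within the RZ 650 (6.4%), each from 2 against 2 libraries, and 0 passed the adjusted threshold by limma voom in each. By limma-trend the counts at an unadjusted p under 0.05 were 138, 115 and 203, with 0 past the adjusted threshold. In the RZ 1 window passed without the day 3 library numbered 3 and 2 without the day 7 library numbered 1. The difference between the day differences in IZ and RZ was tested directly. It gave 419 windows (4.12%) at an unadjusted p under 0.05 and 0 past the adjusted threshold by limma voom, and 153 and 0 by limma-trend. The sign was the same in all 3 zones for 3761 windows (37.0%). Among the named windows, Per1 was 0.09 higher in the IZ, 0.36 in the BZ and 0.53 in the RZ on the log2 scale, while Tbc1d2b lay at -0.67, -0.83 and -0.57. In Zbtb16 the zones gave 0.86, 0.37 and 1.26.

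Markers of macrophage and monocyte types were then read as lists, whose members were taken in part from the clusters the study found in these samples and are thus not independent evidence. None of the tested members of any list passed the adjusted threshold. All 14 resident macrophage genes with enough pairs, of 15 on the list, were higher at day 7, against 48.9% of all windows, with a median of 0.30 log2 against -0.01 for all windows, and 2 had an unadjusted p under 0.05 (5.14% of windows were higher at that p). The 3 complement genes C1qa, C1qb and C1qc share a locus and 1 value. Stab1, a scavenger receptor, held 283, 357 and 428 CPM at day 3 and 356, 405 and 452 CPM at day 7, with 0.26 log2 ± 0.11 (SE), adjusted p = 0.431 by limma. Mertk, a receptor for the uptake of dying cells, held 136, 174 and 250 CPM and 192, 213 and 252 CPM, with 0.32 log2 ± 0.15 (SE), adjusted p = 0.542 by limma.

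The resident macrophage list depended on the pools. Summed over the list, the libraries held 1317, 2046 and 2551 CPM at day 3 and 1928, 2224 and 2472 CPM at day 7. The days overlapped, and the low end of day 3 was the IZ and BZ libraries numbered 2. The median was 0.42 in the libraries numbered 2 (12 of 14 higher, against 51.7% of all windows) and 0.12 in the others (9 of 14 higher, against 49.2%), and without the day 3 pool numbered 2 it was 0.01.

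The classical monocyte and Arg1 macrophage lists had negative medians over all pools. The 4 classical monocyte genes with enough pairs, of 8, were all lower (51.1% of all windows were), with a median of -0.43. Of these, Hp, the gene of haptoglobin, held 24.3, 50.5 and 87.3 CPM at day 3 and 13.3, 39.6 and 55.2 CPM at day 7, with -0.60 log2 ± 0.30 (SE), adjusted p = 0.585 by limma. This list also turned with the pools. Its median was 0.18 in the libraries numbered 2 and -0.63 in the others, and without the day 7 pool numbered 1 it was 0.27. The 5 genes with enough pairs, of 8, that mark the Arg1 macrophages of the study were lower too, with a median of -0.27. Trem2, a lipid receptor of macrophages, held 25.1, 59.8 and 76.8 CPM at day 3 and 13.3, 30.6 and 60.6 CPM at day 7, with -0.65 log2 ± 0.31 (SE), adjusted p = 0.56 by limma. Arg1, which encodes arginase, was at -0.51 log2 ± 0.33 (SE), adjusted p = 0.718 by limma. For the Arg1 macrophage list the median was -0.19 in the libraries numbered 2 and -0.32 in the others, and it ran from -0.50 to -0.19 when libraries or pools were left out.

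**Figure D3:**
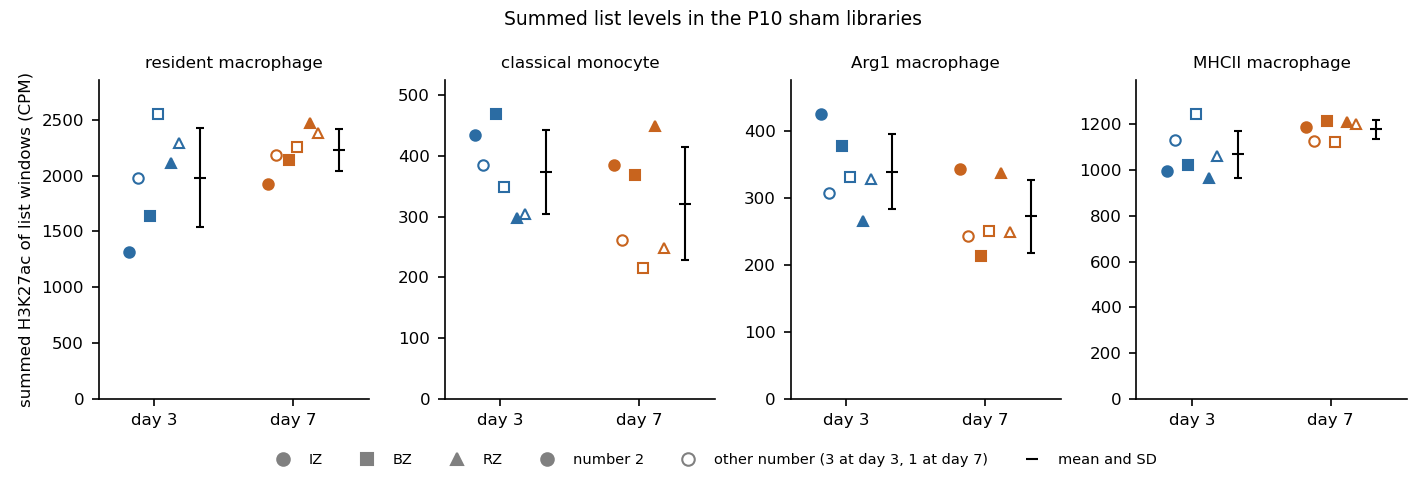
Summed H3K27ac of the tested windows of 4 marker lists (CPM, vertical axes from 0) by day (horizontal axes), 1 point per library. Circles are IZ, squares BZ and triangles RZ, filled for libraries numbered 2, and bars give the mean and SD of 6 libraries. The days overlap in all 4 panels, and at day 7 the 3 libraries numbered 2 have the 3 highest classical monocyte sums.

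MHC class II genes, the genes of antigen presentation, were higher at day 7 in 7 of 8 windows, with a median of 0.17, and 0 had an unadjusted p under 0.05 (8.47% of all windows had). H2-DMb1, a chaperone that helps to load peptides, held 246, 274 and 321 CPM at day 3 and 285, 320 and 335 CPM at day 7, with 0.21 log2 ± 0.11 (SE), adjusted p = 0.601 by limma. It shares a locus with H2-DMa and H2-DMb2. The list's median was 0.32 in the libraries numbered 2 and -0.06 in the others, and it was -0.0006 without the day 3 pool numbered 2 and 0.01 without the day 7 BZ library numbered 1. Among the 9 general macrophage genes 7 were higher, with a median of 0.06, which was 0.18 in the libraries numbered 2 (8 of 9 higher), -0.09 in the others (2 of 9 higher) and -0.0088 without the day 3 RZ library numbered 2. Cd68, a lysosomal protein of macrophages, was 0.33 log2 ± 0.11 (SE) higher with an adjusted p of 0.303 by limma, and Csf1r, the receptor that macrophages need to survive, was 0.21 higher. Ptprc, the gene of the sorted protein CD45, was at -0.36 log2 ± 0.16 (SE), adjusted p = 0.48 by limma, and at 0.01 in the libraries numbered 2 alone. Of the genes of Ly6c-low monocytes 4 of 7 were higher, with a median of 0.04, and the 2 tested genes of 5 that mark S100a9 Ly6c monocytes were lower, with Lcn2, the gene of lipocalin 2, at -0.31 log2.

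Functional lists had medians of -0.03 to 0.13. Of the 20 lists with a tested member, 14 had medians of different sign in the libraries numbered 2 and in the others. Of 16 immediate early and stress genes, which tissue digestion can induce, 11 were higher with a median of 0.08, which was -0.02 in the libraries numbered 2 (7 of 16 higher), 0.15 in the others and 0.01 without the day 7 RZ library numbered 1. Fosb, a subunit of AP-1, was at 0.48 log2 ± 0.15 (SE), adjusted p = 0.293 by limma, and at 0.12 in the libraries numbered 2 and 0.71 in the others. Dusp1, a phosphatase that shuts off MAP kinases, was at 0.18, and Egr2, a transcription factor induced by growth signals, had the lowest value of the 5 lower members at -0.31 log2 ± 0.28 (SE), adjusted p = 0.84 by limma. Wound repair genes were higher in 7 of 9 tested windows of 12, with a median of 0.13, which was 0.13 in the libraries numbered 2, 0.03 in the others, 0.04 without the day 3 BZ library numbered 2 and -0.0034 without that whole pool. Pdgfb, a growth factor for mural cells and fibroblasts, held 79.8, 114 and 150 CPM at day 3 and 107, 166 and 213 CPM at day 7, with 0.54 log2 ± 0.19 (SE), adjusted p = 0.303 by limma. Tgfb1, which drives matrix formation, was at 0.24 log2 ± 0.09 (SE), adjusted p = 0.386 by limma. Igf1, a growth factor and the lower of the 2 members below 0, was at -0.27 log2 ± 0.30 (SE), adjusted p = 0.893 by limma.

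Lysosome and lipid genes had a median of 0.00, with 7 of 13 tested windows of 14 higher. Ctsd, the lysosomal protease cathepsin D, held 158, 192 and 230 CPM at day 3 and 105, 141 and 164 CPM at day 7, with -0.43 log2 ± 0.15 (SE), adjusted p = 0.303 by limma. It was the member of this list with the smallest p, and its libraries overlapped between the days. Macrophage transcription factors were higher in 9 of 20, with a median of -0.01. Klf2, which restrains inflammatory genes, was at 0.29 log2 and Nr4a1, a nuclear receptor of Ly6c-low monocytes, at 0.26. Inflammatory cytokine genes had a median of 0.07 (9 of 12 tested of 16 higher), with Tnf at 0.11 and the chemokine gene Ccl2 at -0.26. That median was 0.17 in the libraries numbered 2 (11 of 12 higher), -0.08 in the others (5 of 12 higher) and 0.01 without the day 3 BZ library numbered 2. Interferon response genes had a median of -0.03 (3 of 9 tested of 12 higher), with the regulator Irf7 at 0.51 log2 ± 0.31 (SE) and the antiviral gene Rsad2 at -0.21. Cell cycle genes had a median of 0.04 (5 of 8 tested of 14 higher), with the G1 cyclin gene Ccnd1 at 0.52 log2 ± 0.21 (SE), the replication gene Mcm5 at 0.22 and the proliferation marker gene Mki67 at -0.33. When all pairs in a window were counted, more members could be tested. The cell cycle median was then -0.08 (5 of 12 higher), that of macrophage transcription factors 0.09 (15 of 20), that of classical monocyte genes -0.21 (1 of 8) and that of S100a9 Ly6c monocyte genes -0.97 (1 of 5). All 8 MHC class II genes were higher with a median of 0.32, 8 of 9 general macrophage genes with 0.21 and 14 of 15 resident macrophage genes with 0.36. The share and median of all windows under this counting are not given here, so these values are a description. The counting includes pairs outside regions, and the part of their share in these values was not tested.

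Markers of other cells that a sort could hold were few among the tested windows. Of B cell genes 3 of 4 tested of 6 were higher (median 0.12), of neutrophil genes 1 of 4 tested of 7 (median -0.04), and of dendritic cell genes 1 of 4 tested of 6 (median -0.21). The single tested gene of the NK cell list, Klrb1c, was at -0.28 log2, that of the eosinophil and mast cell list at -0.18 and that of the non-leukocyte list at 0.01. Like the classical monocyte median, the dendritic cell median turned with the pools. It was 0.05 in the libraries numbered 2 and -0.25 in the others, 0.12 without the day 7 pool numbered 1 and 0.01 without its BZ library alone. The eosinophil and mast cell gene was at 0.19 without that pool, and the B cell median was -0.04. With all pairs counted, 0 of 6 T cell genes and 0 of 6 eosinophil and mast cell genes were higher, with medians of -0.33 and -0.52, and 3 of 6 B cell genes were, with a median of -0.01. Values over all windows under this counting are not given here, so these counts are a description. Summed levels of these lists overlapped between the days. The neutrophil list held 404, 463 and 577 CPM at day 3 and 427, 471 and 522 CPM at day 7, and the dendritic cell list held 243, 290 and 335 CPM and 202, 269 and 379 CPM. Their part in the results was not tested.

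**Figure D4:**
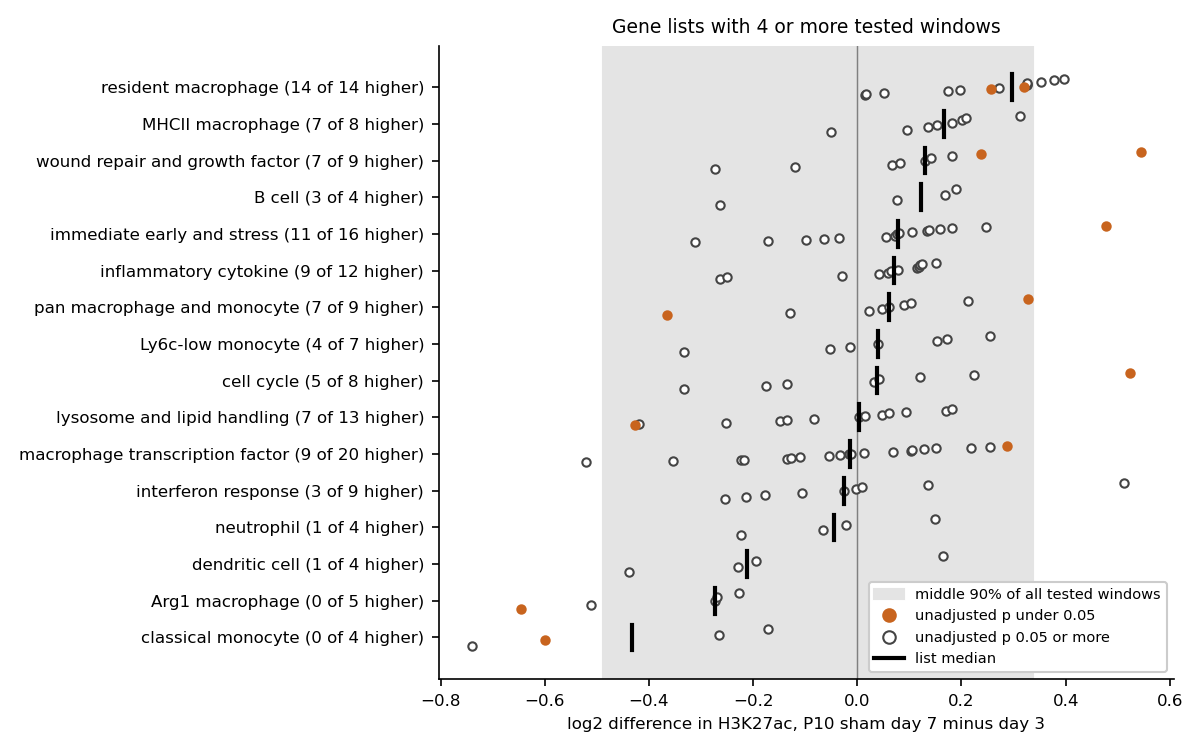
Log2 difference of H3K27ac, day 7 minus day 3 (horizontal axis), for the tested windows of 16 gene lists (rows, ordered by their median). Each circle is a gene, filled orange at an unadjusted p under 0.05, black bars are list medians, and the grey band holds the middle 90% of all windows, from -0.49 to 0.34. No gene shown passed the adjusted threshold, and most list members lie within the band.

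The same difference in infarcted P10 hearts was compared with that in sham hearts. In P10 MI hearts 649 of 10159 windows (6.39%) passed between day 7 and day 3 by limma voom, 314 (3.09%) higher and 335 (3.3%) lower, in 285 stretches. The difference between the day differences of sham and MI hearts was tested directly. It had an unadjusted p under 0.05 in 461 windows (4.54%) and an adjusted p under 0.05 in 0 by limma voom, and in 267 and 0 by limma-trend, so that a count of 0 in sham and of 649 in MI does not show that the 2 differ at any named window. The MI and sham libraries are separate, but the MI pools of a day and number were sequenced on the lanes of the sham pool of that day and number. Differences of flow cell are therefore shared by both comparisons.

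At the 314 windows that rose in MI hearts, with a median of 0.60 log2, the sham hearts had a median of 0.28, and 297 (94.6%) were higher in sham too. At the 335 windows that fell in MI hearts (median -0.82), the sham median was -0.29, and 305 (91.0%) were lower. Over all windows 67.3% had the same sign in both. In the sham libraries numbered 2 alone, 247 of the 314 (78.7%) and 205 of the 335 (61.2%) had the sign of the MI hearts, with medians of 0.19 and -0.09. In the others it was 290 (92.4%) and 301 (89.9%), with medians of 0.27 and -0.34. The share of 67.3% belongs to all sham pools. No such share over all windows is given here for either pair of pools alone, so these 4 counts are a description.

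Some of the named windows passed in MI hearts. The Cd151 window rose there by 0.40 log2 (adjusted p = 0.0162 by limma) against 0.44 in sham, Per1 rose by 0.48 (adjusted p = 0.000814 by limma) against 0.33, and Tbc1d2b fell by 0.74 log2 (adjusted p = 0.000911 by limma) against -0.69. Of the regions 222 (1.78%) passed in MI hearts. Among the named regions, the one near Ddit4 rose there by 1.10 log2 (adjusted p = 0.0142 by limma). The broad chromosome 7 region rose by 0.43 log2 (adjusted p = 0.0353 by limma). Those within Iqsec1 and Actn1 were at -1.61 and -1.37 log2 (adjusted p = 0.0189 and 0.0344 by limma). The other named regions did not pass there. At other windows the 2 values lay further apart. Clpsl2, which stands for the Fkbp5 region, was at 0.01 in MI hearts and 0.90 in sham hearts, and Wdr25 was at 0.47 and -1.21. The Wdr25 day difference in sham minus that in MI hearts was -1.68 log2, and its adjusted p of 0.796 by limma was the smallest of that comparison. Of all 649 windows that passed in MI hearts, 602 (92.8%) had the same sign in sham hearts. Of 148 list members tested, 24 (16.2%) passed in MI hearts, against 6.39% of all windows. The sign was the same in sham hearts for 23 of these 24. Among them Trem2 (-1.59 log2) and Hp (-1.43) fell in MI hearts, Cd68 (0.37), Pdgfb (0.83) and H2-DMb1 (0.42) rose, and Ctsd (-0.73) fell. The exception in sign was Nfkbia, which encodes an inhibitor of NF-kB, at -0.53 log2 in MI hearts (adjusted p = 0.0497 by limma) and 0.15 in sham hearts.

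The day difference was also compared with that of sham hearts operated on at P1, which were taken at about 4 and 8 days of age. In P1 sham, 0 of 10159 windows passed by limma voom, at 678 (6.67%) with an unadjusted p under 0.05, and day 3 there is a single pool of 3 libraries, 1 per zone, whose spread was taken from the other groups of the fit. The P10 day difference minus the P1 day difference had an unadjusted p under 0.05 in 1183 windows (11.6%) and passed in 0 by limma voom, with a smallest adjusted p of 0.0669, and by limma-trend in 527 and 0. The count was 91 without the pools as a block, and it was 30, 3, 15, 43 and 20 without the day 3 IZ or BZ library numbered 3 or the day 7 IZ, BZ or RZ library numbered 2. The smallest adjusted p was that of Clpsl2, at 0.90 log2 in P10 sham and -0.84 in P1 sham. The resident macrophage list had a median of -0.48 in P1 sham hearts with 1 of 14 higher (46.6% of all windows were higher there), and the classical monocyte list had 0.45 with 4 of 4 higher, where P10 sham hearts had 0.30 and -0.43. The P1 day 3 pool was sequenced on the lanes of the P10 day 7 pool numbered 1. These lanes thus stand for day 3 in P1 and for day 7 in P10, and their part in the values was not tested. The P1 sham day 7 IZ library numbered 1 held 48044 pairs, with 32.2% of them in regions.

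**Figure D5:**
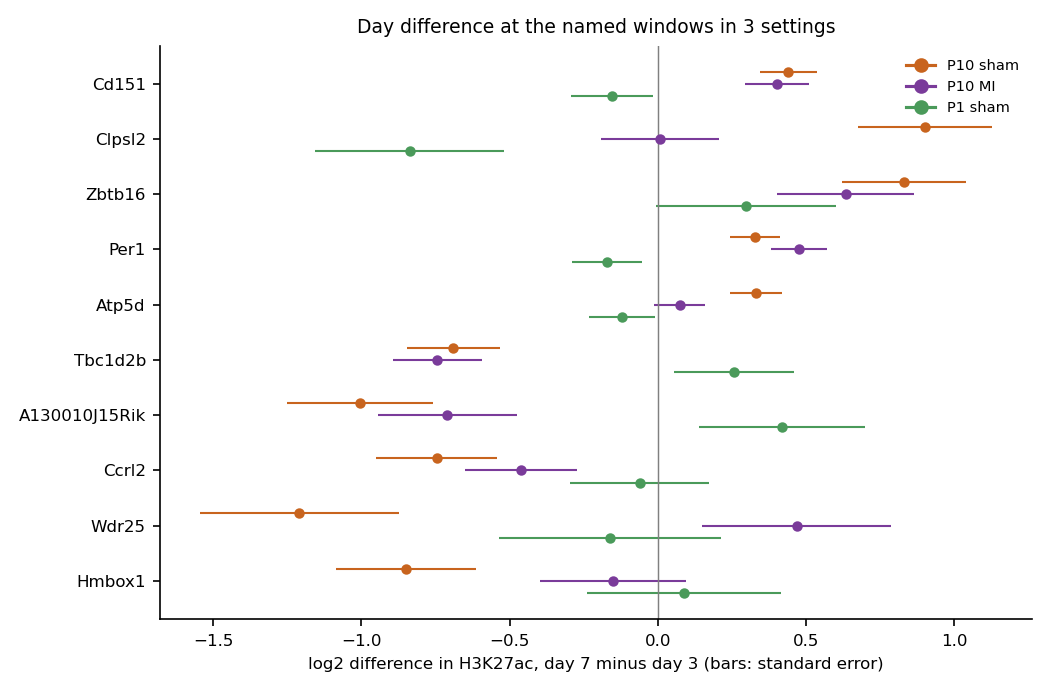
Log2 difference of H3K27ac, day 7 minus day 3 (horizontal axis), at the 10 named windows (rows) in P10 sham (orange), P10 MI (purple) and P1 sham (green) hearts, with standard errors as bars. P10 MI hearts had the sign of P10 sham hearts at 9 of the windows, with Clpsl2 at 0.01 and Wdr25 on the other side at 0.47. The windows were chosen on P10 sham libraries, whose points are therefore a description.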

How the data were processed

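The study pooled the same heart zone of several mice, sorted CD45+ F4/80+ 7AAD- cells and made H3K27ac CoBATCH libraries. The authors aligned reads to mm10 with Bowtie2 and removed duplicates with Picard, and the submitters' processing notes also name MACS2 2.2.7.1 and deepTools. Each deposited file lists the aligned reads of 1 library with a mapping quality score, which ran from 21 to 44, and was not used as a measurement. No column of other samples was present, and no cell barcodes were given.

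Mates were joined by read name, repeated lines were dropped and each pair was counted once. Some reads of the libraries numbered 2 had no mate and counted as a pair. H3K27ac regions were called once from all 42 libraries with 24 groups weighted equally: bins of 500 bp that reached 4 times the mean of all bins with a read were merged across gaps below 1000 bp, which gave 27160 regions with a median of 1500 bp over 88.9 Mb. Pairs in regions were counted per window of 21938 protein-coding genes (GENCODE M21, GRCm38). A window had to reach 10 pairs and a region 3 pairs, averaged over the libraries, to be tested.

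Counts were scaled by TMM factors (0.982 to 1.04 in these libraries) and fitted with limma 3.58.1 (voom, moderated two-sided test) in R 4.3.3, as 24 group means over 42 libraries with 14 pools as a random block (correlation 0.107 in windows). The contrast is the mean over 3 zones of day 7 minus day 3, and p-values were adjusted by Benjamini-Hochberg over all features. CPM totals are TMM-scaled sums over tested features, and windows overlap. The fit was tested on simulated data. The scripts ran in Python 3.11.15 with scipy 1.17.1 and pandas 2.3.3. No molecular identifiers were available, so counts can hold copies of 1 molecule, and p-values rest on a spread pooled over all 24 groups, with 2 pools a day in P10 sham hearts.

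The members, the 21 gene lists and the tests were chosen with earlier results of these data known. Named were, per direction, the 5 windows and 5 regions with the smallest p, the same sign in each of the 3 zones and no base in common with a better ranked one, and list members with the smallest p in each direction, of which some are printed and the others given as counts. A few items, 1 named region among them, are not reported here. The alternatives were other scalings, filters, blocks, weights and counting rules, each library or pool left out, and thinning to 280975 pairs.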

Additional observations from a re-analysis of the deposited data

Results flagged for a closer look

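In 108 groups of 6 libraries tested, 10 had a highest or lowest library far from the others, and chance gives about 1 in 20 groups. The number here is the gap to the nearest other library divided by the range of the group, whose critical value is 0.625 for 6 libraries. Of these 10, 9 libraries were numbered 2 and 4 each were the day 3 IZ library numbered 2 and the day 7 RZ library numbered 2, which had 38.7% and 39.5% of their pairs in regions, the lowest shares of their days. The part of these shares was not tested.

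The day 3 IZ library numbered 2 was the highest of its day for Mcm5 (160 CPM, next 124, ratio 0.860), Fosb (217 CPM, next 154, ratio 0.725), Nr4a1 (325 CPM, next 236, ratio 0.627) and the region near Fam71a (39.3 CPM, next 22.2, ratio 0.756). The day 7 RZ library numbered 2 was the highest of its day for Ccrl2 (107 CPM, next 67.8, ratio 0.701) and Arg1 (46.3 CPM, next 23.6, ratio 0.663). It was the lowest for Fosb (121 CPM, next 201, ratio 0.661) and Nr1d1 (278 CPM, next 379, ratio 0.681). The day 3 RZ library numbered 2 was the lowest of its day for Tgfb1 (299 CPM, next 342, ratio 0.627), and the day 7 BZ library numbered 1 was the highest for Irf7 (47.3 CPM, next 32.6, ratio 0.641).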

How the results depend on the processing

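No window or region passed in P10 sham hearts, and no window passed in the comparison of their day difference between zones or with MI or P1 sham hearts, and the other fits left these counts at 0 or raised them. For windows between the days the count was 9 with a minimum of 1 pair, 13 without the pool block, 9 with repeated lines kept and 0 to 13 when libraries or pools were left out. The replicate number as a block within each group of pools gave 46 windows (39 higher, 7 lower), and as 1 term shared by the P10 groups, an alternative chosen after seeing the data, it gave 0. The block within each group removes the difference between the pools of that group and pairs no pool across the days. Its test rests on the spread among zone libraries of the same pools, which are not independent, for windows and regions alike. The groups share the number 2 alone, so the shared term pairs 1 pool a day. The deviations of the libraries numbered 2 from their group means had a correlation across windows of 0.16 between the days, and the samples were not taken as paired. For regions the count was 1 with median-of-ratios scaling, 1 with a minimum of 1 pair, 1 without the pool block, 14 with the 12 libraries alone (13 higher), 10 with the replicate block (7 higher), 1 with repeated lines kept, 1 with regions at 8 times the mean (lower) and 0 to 8 when libraries or pools were left out. The difference from P1 sham was 91 windows without the pool block (78 higher) and 0 to 43 with libraries left out, and the RZ count was 0 to 2. Counts within IZ and BZ, of IZ against RZ and of sham against MI were 0 in all 7, 7, 11 and 15 alternatives run. The difference in the share of pairs in regions was 1.86 to 6.25 points in the 14 alternatives run. The cause of these changes was not tested.

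Of 1734 values of 56 named windows and regions, 1679 kept their direction and side of the threshold, 44 passed it and 11 changed sign. The sign changed for Ptprc and Il1r2 in the libraries numbered 2 alone (0.0055 and 0.0066), Hp without the day 7 pool numbered 1 (0.10, in a range of -1.09 to 0.10 over the libraries and pools left out), and in pairs within 2 kb of the start site for Tgfb1 (-0.0098), Klf2 (-0.17), Mki67 (0.096) and Nfkbia (-0.074). It also changed for Igf1 with thinned libraries (0.014), without the day 7 RZ library numbered 1 (0.0089) or without that pool (0.14, in a range of -0.50 to 0.14), and for Egr2 without the day 7 pool numbered 2 (0.00071, in a range of -0.85 to 0.00071). None of these had passed. Scaling to all deposited pairs moved the median of all windows to 0.16 from -0.01, and beside it the resident macrophage median was 0.42 and the classical monocyte median -0.22. Regions held a median of 9 pairs per library and windows 39.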

Other observations

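After the values of Zbtb16, Per1, Fkbp5 and Ddit4 had been seen, a pair of lists was added, and their values are given as a description. Glucocorticoid-induced genes are switched on when the hormone binds its receptor. Of 15 such genes 14 had enough pairs, 12 were higher at day 7 (48.9% of all windows were), the median was 0.34 log2, and 5 had an unadjusted p under 0.05 (8.47% of all windows had). Their summed level was 1506, 1528 and 1638 CPM at day 3 (lowest, median, highest of 6) and 1776, 1878 and 2051 CPM at day 7, so that the days did not overlap. The median was 0.27 in the libraries numbered 2 and 0.24 in the others. Without the 4 genes that prompted the list, 8 of 10 tested were higher, with a median of 0.17, 1 had an unadjusted p under 0.05, the median was 0.19 in the libraries numbered 2 (9 of 10 higher) and 0.06 in the others (5 of 10 higher), 5 of 10 were higher in P10 MI hearts, and the summed levels of 727, 812 and 967 CPM and 875, 947 and 997 CPM overlapped.

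Klf9, a transcription factor that the receptor induces, held 21.3, 40.4 and 61.8 CPM at day 3 and 59.9, 67.6 and 72.9 CPM at day 7, with 0.76 log2 ± 0.24 (SE), adjusted p = 0.277 by limma. The window of Fkbp5 was at 0.64 log2 ± 0.19 (SE), adjusted p = 0.232 by limma, and at -0.04 in P10 MI hearts. The window of Ddit4 held 70.8, 93.2 and 102 CPM at day 3 and 121, 136 and 186 CPM at day 7, which did not overlap, with 0.73 log2 ± 0.20 (SE), adjusted p = 0.189 by limma. In P10 MI hearts it rose by 0.81 log2 (adjusted p = 0.0131 by limma). Of the 2 lower members, Il1r2, a decoy receptor for interleukin 1, was at -0.45 log2 ± 0.38 (SE), adjusted p = 0.822 by limma. In P1 sham hearts the list of 14 had a median of -0.14.

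Of 14 circadian clock genes 12 had enough pairs and 8 were higher (48.9% of all windows were), with a median of 0.16. Without Per1 it was 7 of 11 with a median of 0.15. This was 0.07 in the libraries numbered 2, 0.19 in the others and 0.02 with thinned libraries. Nr1d1, a repressor of the clock, held 280, 315 and 340 CPM at day 3 and 278, 383 and 426 CPM at day 7, with 0.30 log2 ± 0.11 (SE), adjusted p = 0.304 by limma. The clock output factors Tef and Dbp were at 0.41 and 0.32, and the 4 lower members reached from -0.22 for Per3, a repressor of the clock, to values closer to 0. The summed level was 1371, 1430 and 1547 CPM at day 3 and 1503, 1705 and 1841 CPM at day 7, and the days overlapped. The hour at which hearts were taken is not given in the sources used here.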
